A study of Mus musculus with 14 samples.

Results

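The ABC efflux transporters described here are 10 genes chosen by symbol out of the 24411 gene symbols counted in each kidney library. They are Abcb1a, Abcb1b, Abcg2, Abcc2, Abcc4, Abcc1, Abcc3, Abcc5, Abca1 and Abcg1. All 10 passed the filter on low counts that left 14300 genes for testing. The study sequenced RNA from whole kidneys of male C57/B6 mice aged 8 weeks, with 4 libraries at day 0 and 5 on each of days 1 and 3 of ischemia-reperfusion injury of the kidney (IRI), in which its blood flow is stopped for a time and then restored. The question was how the kidney changes with time after the injury. No transgene or other agent is named for these mice, the day 0 libraries are named as controls, and whether those mice had a sham operation is not stated. Nothing states that the libraries of a day came from separate animals, so the p-values below measure the spread between libraries. In RNA from whole tissue, fewer cells of a type and less RNA per cell cannot be told apart.

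ABC transporters are membrane proteins that use ATP to push substrates out of a cell or across a membrane. In the proximal tubule, uptake carriers on the blood side bring drugs, urate and metabolites into the cell, and ABC transporters of the brush border release them into the urine. Those of the basolateral side return conjugates to the blood. Other ABC transporters, Abca1 and Abcg1 among them, move cholesterol and phospholipid out of cells onto lipoproteins. The genes of these 2 are switched on by the sterol-sensing liver X receptors (LXRs). Genes of drug exporters are known targets of receptors for foreign compounds and of NRF2, a factor that responds to oxidative stress.

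Between 12485579 and 20476979 reads per library fell on genes. The kidney label fitted the markers, since summed levels of 11 proximal tubule genes were 47750 to 52470 CPM at day 0 (CPM are TMM-scaled reads relative to the library total), with Slc34a1, the sodium-phosphate carrier of that segment, at 4776 ± 470 CPM (SD, n = 4). The same sum was 19980 to 51100 CPM at day 1 and 9783 to 24480 CPM at day 3. A sum over 7 genes of tubular injury was 1174 to 1543 CPM at day 0, 8461 to 37020 CPM at day 1 and 6667 to 44400 CPM at day 3. Day 0 replicate 4 stood apart from the other day 0 libraries, with 55.8 CPM summed over 7 urothelium genes against 3.88 to 12.0 and with 152 CPM summed over 5 adipocyte genes against 57.8 to 70.7. Library names carry a number of 1 digit (all day 0 libraries, day 1 replicates 3 to 5, day 3 replicates 4 and 5) or of 3 digits (the rest). What this number format stands for is not stated, and results are also given within each format as they would be for a batch.

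Per length of exon, Abcg2 was the most abundant of the 10 transporters on every day. Abcg2 encodes the breast cancer resistance protein, a brush border exporter of urate and many drugs. It stood at 77.8 ± 5.89 CPM per kb of exon (SD, n = 4) at day 0, against 13.3 ± 2.18 CPM per kb for Abcc2, the next in order, and no library of Abcg2 came as low as any of Abcc2 on any day. Abcc4 followed at 8.24 ± 3.11 CPM per kb and Abcc5 at 5.62 ± 1.15 CPM per kb. From Abcc2 downwards, each gene's range of CPM per kb at day 0 overlapped that of the next in order, down to Abcb1a (1.54 ± 0.721 CPM per kb) and Abcc3 (1.41 ± 1.78 CPM per kb). The order of the lower genes differed by day. Abcb1a was the ninth of the 10 at day 0 and the fourth at day 1 (5.20 ± 2.98 CPM per kb, n = 5), although its day 1 range overlapped that of the gene ranked next below it, Abcc5. Abcg1 had the lowest mean of the 10 at day 1 (0.619 ± 0.143 CPM per kb) and at day 3 (0.662 ± 0.189 CPM per kb), with no overlap with the gene next above it by mean on either day, although the day 1 range of Abcc3 reached below that of Abcg1. In unscaled terms, Abcg2 supplied 60.8% ± 5.54 of the members' summed CPM at day 0, 67.2% ± 4.94 at day 1 and 53.9% ± 8.79 at day 3.

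**Figure D1:**
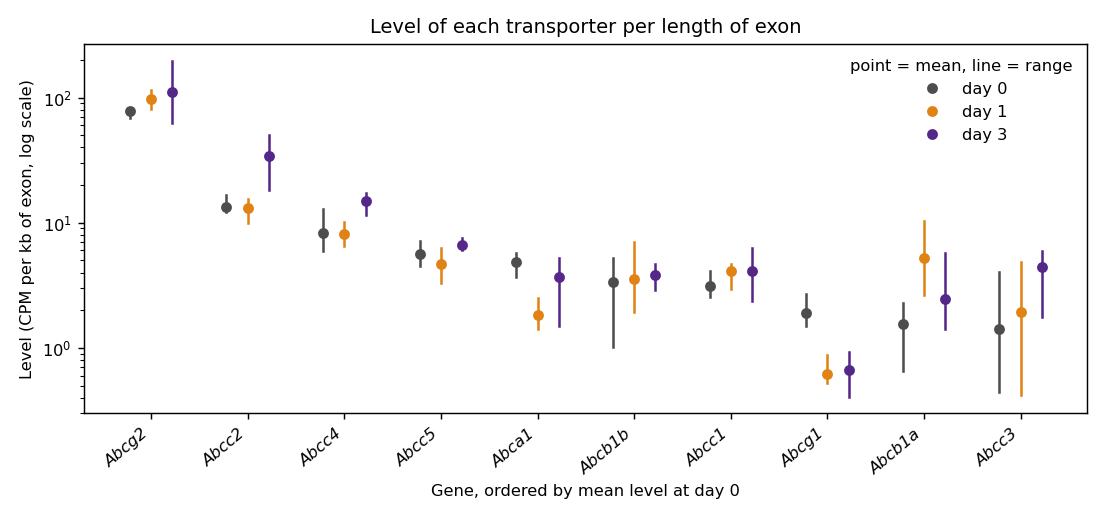
Level of each transporter in CPM per kb of exon on a log axis, in order of the day 0 mean, with the mean as a point and the range over libraries as a line for day 0 (n = 4), day 1 and day 3 (n = 5 each). Abcg2 lies above the other genes on every day, and Abcg1 has the lowest mean at days 1 and 3.

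Against day 0, 1 of the 10 transporters rose and 2 fell at day 1, while 42.1% of all tested genes were called in that comparison at an adjusted p under 0.05 (23.3% higher and 18.7% lower). At day 3 against day 0, 2 rose and 1 fell, beside 33.3% of all tested genes called (19.5% higher and 13.8% lower). At day 3 against day 1, 3 rose and none fell, beside 15.9% of all tested genes called (8.52% higher and 7.39% lower). The members' share called (30%) was therefore below the background at day 1, near it at day 3, and above it between the injured days. The median log2 fold change of the 10 was 0.04 at day 1 and 0.45 at day 3 against day 0, beside 0.01 and 0.05 over all tested genes. The genes called were Abcb1a, Abca1 and Abcg1 at day 1, and Abcc2, Abcc4 and Abcg1 at day 3. The day 1 and day 3 comparisons share the day 0 libraries.

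**Figure D2:**
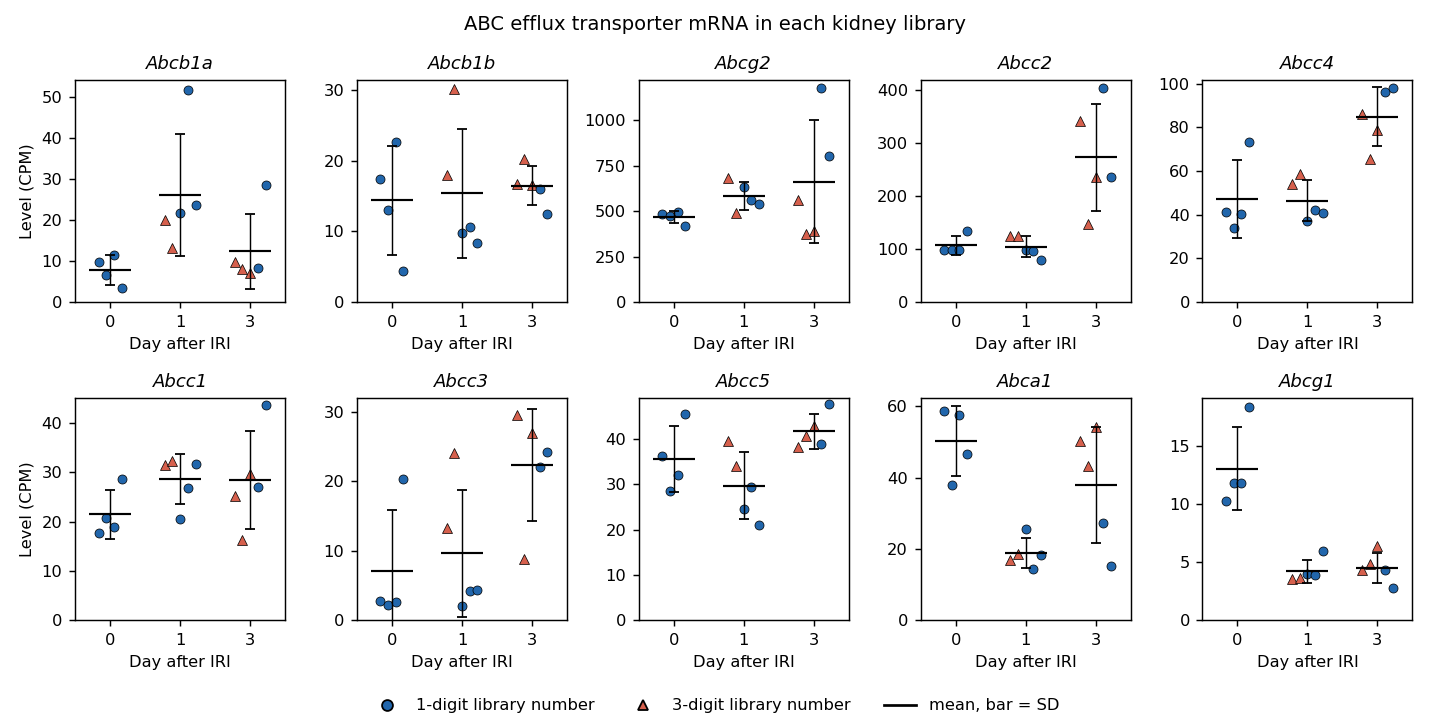
Level in CPM of each transporter in every library by day, with circles for 1-digit and triangles for 3-digit library numbers and with the mean and SD of each day in black (SD bars end at 0 where they would go lower). Abca1 and Abcg1 at day 1 lie below all day 0 libraries, and Abcc2 at day 3 lies above all of them.

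**Figure D3:**
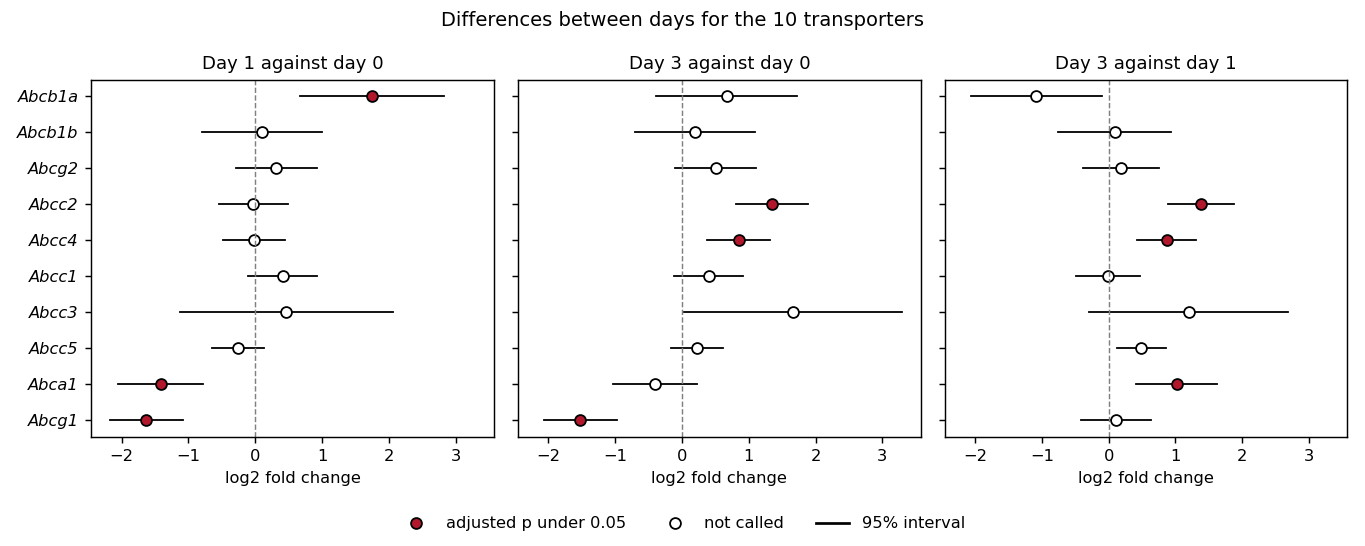
Log2 fold change of each transporter with its 95% interval for the 3 comparisons between days, filled where the adjusted p was under 0.05. Filled points stand at Abcb1a, Abca1 and Abcg1 for day 1, at Abcc2, Abcc4 and Abcg1 for day 3, and at Abcc2, Abcc4 and Abca1 between days 1 and 3.

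P-glycoprotein, the drug efflux pump that exports a wide range of hydrophobic compounds, is encoded in the mouse by 2 neighbouring genes. Abcb1a lies at chr5:8660077-8748575 and Abcb1b at chr5:8798147-8866315, both on the plus strand (GRCm38, GENCODE M21), with 49571 bases between them and 28 exons in the longest form of each. Their longest coding transcripts were identical at 86.5% of aligned bases, and the share of windows of Abcb1a that occur in Abcb1b ran from 19.6% of 36-base windows to 7.49% of 100-base windows, with 22.8% and 8.72% for Abcb1b in Abcb1a. A read that lies within such a window cannot be placed in a single gene, and since the read length is not stated here, the share of reads left uncounted is not known. The 250 bases before the RefSeq transcription start (GRCm38.p6) are shown for both because these neighbouring genes of one ancestry encode the same pump. Capitals mark a GC box (GGGCGG) or CCAAT, searched on both strands.

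Abcb1a, chr5:8566841-8567090, plus strand: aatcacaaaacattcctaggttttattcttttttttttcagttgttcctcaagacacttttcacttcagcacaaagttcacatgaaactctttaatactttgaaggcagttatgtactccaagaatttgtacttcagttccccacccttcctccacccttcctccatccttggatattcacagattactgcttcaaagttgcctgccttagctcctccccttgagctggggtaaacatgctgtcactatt

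Abcb1b, chr5:8797897-8798146, plus strand: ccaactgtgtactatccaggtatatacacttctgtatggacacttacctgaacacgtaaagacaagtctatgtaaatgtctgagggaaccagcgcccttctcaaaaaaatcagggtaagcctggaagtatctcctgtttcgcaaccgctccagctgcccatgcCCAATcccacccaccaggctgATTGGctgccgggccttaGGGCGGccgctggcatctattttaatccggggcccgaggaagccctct

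The Abcb1b window holds 1 GC box (positions -48 to -43 from the start), CCAAT on the plus strand (-87 to -83) and CCAAT on the minus strand (-66 to -62), and 9 CG dinucleotides. The Abcb1a window holds none of the 7 motifs searched and no CG dinucleotide, and 7.87% of the 32851 windows in the RefSeq table likewise lack a CG. A GC box occurs in 32.7% and CCAAT in 33.8% of all these windows. The RefSeq start of Abcb1a lies 92986 bases before the GENCODE start of the gene, within the span of Rundc3b on the other strand, so which start these kidneys used was not established.

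Abcb1a rose at day 1. Its levels were 9.66, 6.47, 11.4 and 3.27 CPM in day 0 replicates 1 to 4, and 19.9, 13.2, 21.6, 51.7 and 23.5 CPM in day 1 replicates 1 to 5. Every day 1 library was above every day 0 library, a separation that 42.0% of all tested genes had in one direction or the other, and day 1 replicate 4 was the highest. The log2 fold change was 1.75 (SE 0.505, adjusted p = 0.0132), a 3.37-fold higher level. Several marker sums were also higher at day 1 than at day 0 without overlap. They included 5 neutrophil genes (1.33 to 2.07 CPM at day 0 and 47.4 to 201 CPM at day 1) and 6 smooth muscle genes (142 to 170 and 309 to 578 CPM). Tubular injury genes (1174 to 1543 and 8461 to 37020 CPM) and fibroblast and pericyte genes (127 to 135 and 145 to 457 CPM) were also among them. The part of these markers in the Abcb1a level was not tested. At day 3 the levels were 9.67, 8.11, 7.03, 8.34 and 28.4 CPM, which overlapped day 0, and the log2 difference from day 0 was 0.67 (SE 0.492, adjusted p = 0.305). It passed with number format as a term (1.197, adjusted p = 0.0425) and for the 1-digit libraries in the fit by day and format (1.25, adjusted p = 0.0491), but not with the 1-digit libraries fitted alone. Day 3 replicate 5 was far above the other day 3 libraries. That library also had the highest sums of 9 endothelium genes (1030 CPM against 256 to 654 CPM in the other day 3 libraries) and of the neutrophil genes (408 CPM against 19.3 to 130 CPM), and their part in the Abcb1a level was not tested. Between days 1 and 3 the log2 difference was -1.08 (adjusted p = 0.119), and without day 3 replicate 5 it was -1.67 (adjusted p = 0.011).

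Abcb1b did not pass the test between days. Its range was 4.41 to 22.6 CPM at day 0, 8.29 to 30.2 CPM at day 1 and 12.5 to 20.3 CPM at day 3, so all days overlapped. The log2 difference from day 0 was 0.10 at day 1 (95% interval -0.80 to 1.00, adjusted p = 0.858) and 0.20 at day 3 (95% interval -0.70 to 1.09, adjusted p = 0.743). The ratio of Abcb1b to Abcb1a CPM was 1.35 to 2.01 at day 0. At day 1 it was 0.905, 2.29, 0.451, 0.206 and 0.353 in replicates 1 to 5, so 4 of 5 libraries held more Abcb1a than Abcb1b CPM. The log2 ratio differed from day 0 by -1.58 at day 1 (exact permutation test, two-sided, p = 0.0794, adjusted over 9 ratio tests p = 0.238), where the smallest p this test can give is 0.00794. A single ratio at that smallest p could not pass the adjustment over 9 tests on its own, so whether the P-glycoprotein genes responded differently is left unanswered by this test.

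Abcg2 lies at chr6:58584523-58695676 on the plus strand (GRCm38), where RefSeq lists 3 starts. Its levels were 484, 475, 495 and 416 CPM at day 0 and 685, 489, 632, 562 and 540 CPM at day 1. At day 3 they were 561, 375, 390, 1181 and 805 CPM, and the 3 lowest of these came from 3-digit and the 2 highest from 1-digit libraries. The log2 difference from day 0 was 0.32 at day 1 (adjusted p = 0.379) and 0.50 at day 3 (SE 0.283, adjusted p = 0.182), so Abcg2 was not called. With number format as a term the day 3 difference passed (0.76, adjusted p = 0.0278). The day 3 SD of 338 CPM was far larger than the 35.4 CPM of day 0.

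Abcc2 and Abcc4, which encode the brush border exporters MRP2 and MRP4, rose at day 3 and not at day 1. MRP2 exports glutathione and glucuronide conjugates, and MRP4 exports cyclic nucleotides, urate and prostaglandins. Abcc2 (chr19:43782192-43840740, plus strand, GRCm38) stood at 97.4, 97.5, 98.7 and 133 CPM at day 0 and at 125, 123, 98.3, 96.1 and 79.2 CPM at day 1. At day 3 its levels were 342, 146, 235, 403 and 236 CPM. All day 3 libraries were above all libraries of both earlier days, where 33.4% of all tested genes had no overlap between days 3 and 0 and 7.61% had none between days 3 and 1, and within day 0 replicate 4 was the highest. The log2 fold change at day 3 was 1.35 against day 0 (SE 0.252, adjusted p = 0.00142) and 1.38 against day 1 (SE 0.233, adjusted p = 0.00337), while at day 1 it was -0.03 against day 0 (95% interval -0.55 to 0.49, adjusted p = 0.93). The sum of 7 fibroblast and pericyte genes was also highest at day 3, at 127 to 135 CPM at day 0, 145 to 457 CPM at day 1 and 530 to 1173 CPM at day 3, and its part in the Abcc2 and Abcc4 levels was not tested.

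Abcc4 (chr14:118482692-118706219, minus strand, GRCm38) stood at 41.0, 34.0, 40.4 and 73.5 CPM at day 0, at 54.1, 58.5, 37.0, 42.1 and 40.6 CPM at day 1, and at 86.1, 65.6, 78.6, 96.4 and 98.3 CPM at day 3. The day 3 libraries were all above those of day 1, but day 0 replicate 4, the library with the raised urothelium and adipocyte sums, was above day 3 replicate 2. The log2 fold change at day 3 was 0.85 against day 0 (SE 0.221, adjusted p = 0.0101) and 0.87 against day 1 (SE 0.206, adjusted p = 0.0141). Without day 0 replicate 4 the difference from day 0 was 1.14 (adjusted p = 0.00117). Abcc2 and Abcc4 were called at day 3 against day 0 within each library number format (Abcc2, 1.58 in 1-digit and 1.18 in 3-digit libraries on the log2 scale; Abcc4, 1.04 and 0.70). At day 3 against day 1 the 1-digit libraries gave 1.81 for Abcc2 (adjusted p = 0.000871) and 1.29 for Abcc4 (adjusted p = 0.00233), and the 3-digit libraries gave 0.96 (adjusted p = 0.0522) and 0.45 (adjusted p = 0.259), which did not pass, beside 32.0% of all tested genes called in 1-digit and 13.9% in 3-digit libraries.

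All RefSeq windows of the members were searched for the antioxidant response element TGACNNNGC, the letters read by NRF2. The matches of Abcc2 and Abcc4 are shown because these genes rose on the same day and are known NRF2 targets. That choice followed their calls in these data, so the matches are a description only. The element occurs in 10.2% of the 32851 RefSeq windows. The Abcc2 window has 1 match and each of the 2 Abcc4 windows has 1, and none of the other RefSeq windows of the members has a match. The matches, from a search of both strands, overlap no match of another motif searched and are shown in capitals with 10 bases on either side.

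Abcc2, chr19:43782200-43782228, plus strand: ctcactgggaTGACATAGCattcatctag

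Abcc4, first start, chr14:118706226-118706254, minus strand: gccccgagagGCGGGGTCAgggcgggccg

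Abcc4, second start, chr14:118676936-118676964, minus strand: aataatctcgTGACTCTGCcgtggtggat

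The match of the first Abcc4 start is on the opposite strand of the gene, and the RefSeq start of Abcc2 lies 116 bases after the GENCODE start. The Abcc2 match lies between these starts, within the gene as GENCODE has it. The second Abcc4 start lies 29288 bases from the GENCODE start of Abcc4, within the gene. The matches are of letters only, and no binding was measured. RefSeq windows were found for 7 of the 10 members (10 windows), and Abcc1, Abcc3 and Abcg1 were not among them. The DR4 motif of the LXRs was searched only as an exact repeat, and forms with changed letters in the repeats were not searched. The exact form was in none of the 10 windows and is in 0.0152% of all windows. A form this rare would be absent from most sets of 10 windows. Its absence therefore does not show whether Abca1 or another member with a window has a DR4 element, and Abcg1 was not searched.

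Abcc3 encodes MRP3, a basolateral exporter of bile acids and glucuronides. Abcc3 (chr11:94343295-94392997, minus strand, GRCm38) was near 2 to 3 CPM in 3 day 0 libraries (2.82, 2.24 and 2.72 CPM) and at 20.4 CPM in day 0 replicate 4. At day 1 it stood at 13.3, 24.2, 2.11, 4.23 and 4.42 CPM, and at day 3 at 29.6, 8.90, 26.9, 22.1 and 24.2 CPM. The days overlapped through day 0 replicate 4 alone at day 3, since every day 3 library was above the other day 0 libraries. The log2 difference at day 3 against day 0 was 1.67 (SE 0.766, adjusted p = 0.106) with all libraries and 3.10 (adjusted p = 0.00838) without day 0 replicate 4. At day 1 it was 0.47 (adjusted p = 0.634) with all libraries and 1.90 (adjusted p = 0.0459) without that replicate. In edgeR's test this library decided the call on both days, while DESeq2 called the day 3 difference with all libraries (1.65, adjusted p = 0.0481). In the same library the urothelium sum was 55.8 CPM, and at day 1 the library with the most Abcc3 (replicate 2) also had the highest urothelium sum, 120 CPM against 5.04 to 21.1 CPM. At day 3 that sum was 1.63 to 13.5 CPM in replicates 1, 2, 3 and 5, of which 3 held over 24 CPM of Abcc3, and 52.1 CPM in replicate 4. The part of these markers in the Abcc3 level was not tested.

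The low libraries of Abcc3 were also those with the lowest sums of the tubular injury genes within their day. At day 1, replicate 3 had 8461 CPM of the 7 injury genes and 2.11 CPM of Abcc3, and replicate 2 had 37020 CPM and 24.2 CPM. At day 3, replicate 2 had 6667 CPM of the injury genes and 8.90 CPM of Abcc3, against 21290 to 44400 CPM and 22.1 to 29.6 CPM in the others. Whether the injury genes and Abcc3 are related was not tested.

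Abcc1 and Abcc5 encode MRP1, a broadly expressed exporter of glutathione conjugates and leukotrienes, and MRP5, an exporter of cyclic nucleotides. Neither passed the test between days in the main edgeR fit (TMM, a mean for each day, all libraries). Abcc1 (chr16:14361558-14475737, plus strand, GRCm38) ranged from 17.7 to 28.7 CPM at day 0, from 20.5 to 32.3 CPM at day 1 and from 16.3 to 43.6 CPM at day 3. Its log2 difference from day 0 was 0.41 at day 1 (95% interval -0.11 to 0.93, adjusted p = 0.182) and 0.40 at day 3 (95% interval -0.12 to 0.92, adjusted p = 0.215). In the fit by day and format the day 3 difference of the 1-digit libraries was 0.72 (adjusted p = 0.0349). The highest Abcc1 level was that of day 3 replicate 5, the library with the raised endothelium and neutrophil sums. Abcc5 (chr16:20331303-20426394, minus strand, GRCm38) ranged from 28.6 to 45.5 CPM at day 0, from 21.1 to 39.6 CPM at day 1 and from 38.3 to 47.7 CPM at day 3. Its largest log2 difference was 0.49 between days 1 and 3 (95% interval 0.12 to 0.85, adjusted p = 0.0664), which passed the threshold when day 1 replicate 1 (adjusted p = 0.026) or day 1 replicate 2 (adjusted p = 0.0475) was left out, and with all libraries by DESeq2 (adjusted p = 0.0448) or without TMM (adjusted p = 0.0493). In the fit by day and format Abcc5 in 1-digit libraries was lower at day 1 than at day 0 (-0.51, adjusted p = 0.0182) and higher at day 3 than at day 1 (0.79, adjusted p = 0.00845).

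The cholesterol exporters fell at day 1. Abca1 loads cholesterol and phospholipid onto lipid-poor apolipoprotein A-I, and Abcg1 passes cholesterol on to formed high-density lipoprotein. Abca1 (chr4:53030787-53159895, minus strand, GRCm38, 50 exons) stood at 58.5, 38.0, 57.6 and 46.5 CPM at day 0 and at 16.8, 18.6, 25.7, 14.5 and 18.3 CPM at day 1. Every day 1 library was below every day 0 library, with a log2 fold change of -1.42 (SE 0.298, adjusted p = 0.00227), a 2.67-fold lower level. At day 3 the levels were 50.2, 43.1 and 54.0 CPM in the 3-digit libraries and 27.2 and 15.3 CPM in the 1-digit libraries. The former lay within the day 0 range and the latter below it. The log2 difference at day 3 against day 0 was -0.40 (SE 0.295, adjusted p = 0.308). Against day 1 it was 1.02 (SE 0.284, adjusted p = 0.028), and this call was lost with day 1 replicate 4 (adjusted p = 0.0732), day 1 replicate 5 (0.0603), day 3 replicate 1 (0.0695) or day 3 replicate 3 (0.0775) left out, with log2 differences of 0.85 to 1.01. It was also lost in a fit of days 1 and 3 alone (1.01, adjusted p = 0.0723), in the fit with number format as a term (0.80, adjusted p = 0.0573) and in the 1-digit libraries alone (log2 difference 0.11, adjusted p = 0.798).

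Abcg1 (chr17:31057675-31117988, plus strand, GRCm38) stood at 10.3, 11.8, 11.9 and 18.4 CPM at day 0. It was at 3.61, 3.63, 4.02, 3.94 and 5.95 CPM at day 1 and at 4.33, 4.84, 6.39, 4.30 and 2.79 CPM at day 3. All libraries of both later days were below all day 0 libraries, and day 0 replicate 4 was the highest of the 14. The log2 fold change was -1.63 at day 1 (SE 0.257, adjusted p = 0.000342), a 3.10-fold lower level, and -1.53 at day 3 (SE 0.256, adjusted p = 0.000751), a 2.88-fold lower level. Between days 1 and 3 the difference was 0.11 (95% interval -0.42 to 0.63). Abcg1 had 38 to 304 counts in a library, the fewest reads at day 3 of the members, so its single values carry more counting error than those of Abca1. The sum of 6 thick limb and distal tubule genes was also lower on both days without overlap, at 7109 to 9831 CPM at day 0, 3428 to 6057 CPM at day 1 and 2235 to 3448 CPM at day 3. So was that of 7 collecting duct genes, at 862 to 1130 CPM at day 0, 421 to 794 CPM at day 1 and 270 to 759 CPM at day 3. The part of these markers in the Abca1 and Abcg1 levels was not tested.

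In the 3-digit libraries of day 3, the log2 difference from day 0 was -0.03 for Abca1 and -1.33 for Abcg1. The ratio of Abca1 to Abcg1 CPM was 2.53 to 5.68 at day 0, 3.08 to 6.39 at day 1 and 5.47 to 11.6 at day 3. The log2 ratio was 1.00 higher at day 3 than at day 0 (exact permutation test, two-sided, p = 0.0238) and 0.82 higher than at day 1 (exact permutation p = 0.0238), and adjusted over the 9 ratio tests both had p = 0.107. The ratio of Abcc3 to Abcc2 did not pass either, with a log2 ratio 0.94 higher at day 3 than at day 0 (exact permutation p = 0.143, adjusted p = 0.257). None of the 9 ratio tests passed the adjustment, which a single ratio could not do on its own at this number of libraries.

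**Figure D4:**
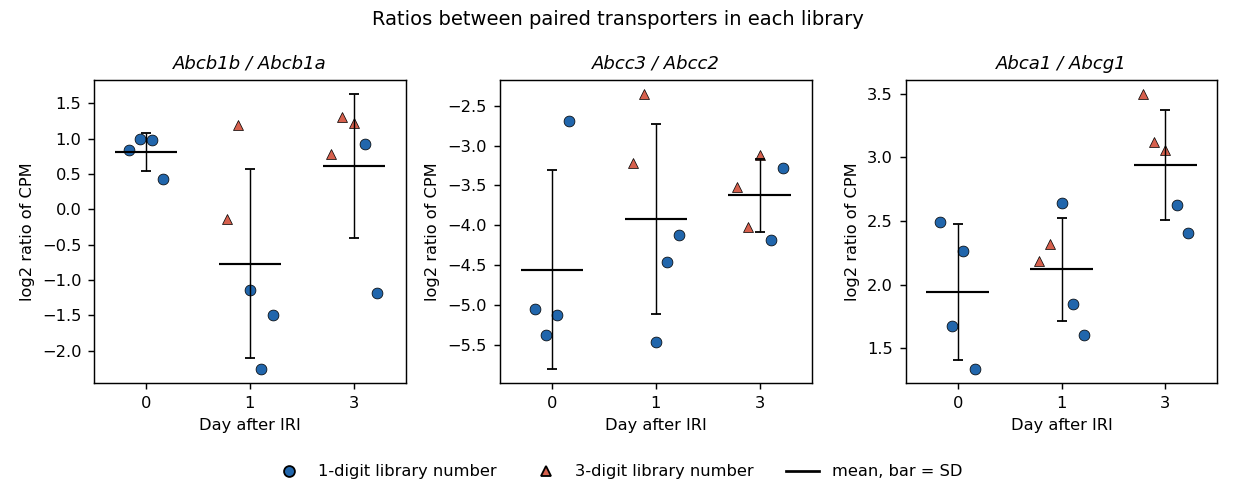
Log2 ratio of CPM between paired transporters in every library by day, with circles for 1-digit and triangles for 3-digit library numbers and with the mean and SD in black. The lowest Abcb1b to Abcb1a ratios are those of the 1-digit libraries of day 1 and of day 3 replicate 5, and the Abca1 to Abcg1 ratio is highest in the 3-digit libraries of day 3.

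Of the 10 members, 30% were called between number formats at day 1 and 20% at day 3, near the shares of all tested genes given below. At day 1, 3-digit libraries (n = 2) had more Abcb1b than 1-digit libraries (n = 3), with means of 24.1 and 9.55 CPM (log2 difference 1.33, adjusted p = 0.0333), more Abcc3 (2.39, adjusted p = 0.0384) and more Abcc5 (0.55, adjusted p = 0.0398), beside 35.0% of all tested genes called. Marker sums of the same libraries also lay apart at day 1, including tubular injury genes at 8461 to 16320 CPM in 1-digit and 31260 to 37020 CPM in 3-digit libraries, proximal tubule genes at 39060 to 51100 and 19980 to 30960 CPM, fibroblast and pericyte genes at 145 to 195 and 342 to 457 CPM, 6 smooth muscle genes at 309 to 398 and 487 to 578 CPM, collecting duct genes at 421 to 623 and 794 CPM, macrophage genes at 90.6 to 99.9 and 139.7 to 157 CPM, and urothelium genes at 5.04 to 8.77 and 21.1 to 120 CPM. At day 3, 3-digit libraries (n = 3) had less Abcg2 than 1-digit libraries (n = 2), with means of 442 and 993 CPM (log2 difference -1.17, adjusted p = 0.00626), and more Abca1, with means of 49.1 and 21.2 CPM (1.21, adjusted p = 0.0144), beside 18.5% of all tested genes called. The format differences of the 2 days differed from each other for Abcg2 (1.19, adjusted p = 0.018) and Abca1 (-1.35, adjusted p = 0.0307), a result that 17.6% of all tested genes had. Most of these calls were lost when single libraries were left out, while the differences kept their sign. At day 1 the Abcb1b call was lost without replicate 2, 3, 4 or 5 (adjusted p up to 0.276), the Abcc3 call without any of the 5 replicates (up to 0.215), and the Abcc5 call without replicate 1, 2, 3 or 5, day 0 replicate 1 or 3, or day 3 replicate 3 (up to 0.213). In the fits that lost the call the log2 difference was 0.91 to 1.41 for Abcb1b, 1.89 to 2.74 for Abcc3 and 0.43 to 0.66 for Abcc5. At day 3 the Abcg2 call was kept with each library left out in turn (adjusted p up to 0.0276), and the Abca1 call was lost without replicate 5 (log2 difference 0.83, adjusted p = 0.159). The difference between the days was lost for Abcg2 without day 1 replicate 1 or day 3 replicate 4 (0.89 to 0.91, adjusted p up to 0.105), and for Abca1 without day 1 replicate 1, 2 or 3 or day 3 replicate 3 or 5 (-1.42 to -0.98, adjusted p up to 0.116).

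Within the formats, the day 1 fall of Abca1 was -1.36 in 1-digit and -1.50 in 3-digit libraries on the log2 scale, and that of Abcg1 was -1.50 and -1.85, all called, beside 58.5% of all tested genes called in 1-digit and 41.6% in 3-digit libraries. The Abcb1a rise at day 1 was called in 1-digit libraries (2.07, adjusted p = 0.00165) and not in 3-digit libraries (1.10, adjusted p = 0.0929), and its format difference at day 1 did not pass the test (-0.97, adjusted p = 0.181). Fitted without the 1-digit libraries of days 1 and 3, the Abcb1a difference was 1.10 with an adjusted p of 0.0468. At day 3 against day 0, 7 of the 10 members were called in 1-digit libraries, beside 53.7% of all tested genes, and 3 in 3-digit libraries, beside 32.4%. Abcg2 was 1.09 higher on the log2 scale in 1-digit libraries (adjusted p = 0.000689) and -0.08 in 3-digit libraries (adjusted p = 0.768). Abca1 was at -1.24 (adjusted p = 0.00199) and -0.03 (adjusted p = 0.933). At day 3 the proximal tubule sum overlapped between formats, at 9783 to 12520 CPM in the 1-digit and 11190 to 24480 CPM in the 3-digit libraries, although 6 of its 11 genes were called higher and none lower in the 3-digit libraries, with a median log2 difference of 1.29 (Slc34a1 had means of 252 and 2134 CPM). Several other marker sums did not overlap there. The tubular injury sum was 36660 to 44400 CPM in the 1-digit and 6667 to 33360 CPM in the 3-digit libraries, that of the smooth muscle genes was 777 to 958 and 289 to 347 CPM, and that of the adipocyte genes was 196 to 241 and 44.0 to 110 CPM. The sum of 10 macrophage genes was 134 to 144 CPM in the 1-digit and 279 to 481 CPM in the 3-digit libraries, that of 7 proliferation genes was 100 to 124 and 338 to 630 CPM, and that of 9 endothelium genes was 654 to 1030 and 255 to 446 CPM. The part of these markers in the format differences of either day was not tested.

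**Figure D5:**
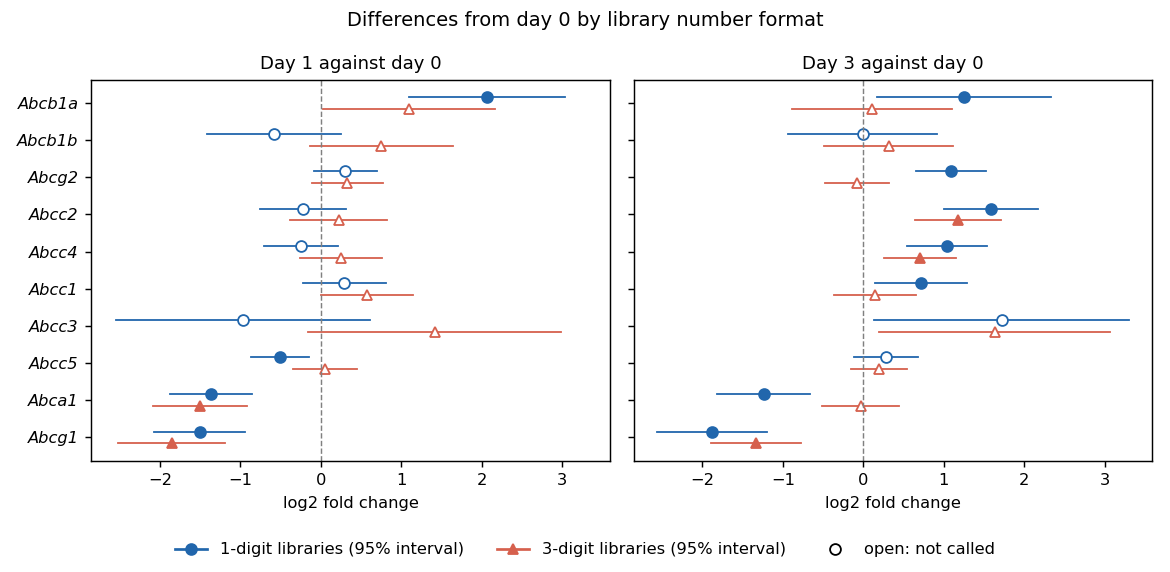
Log2 fold change of each transporter against day 0 with its 95% interval, apart for 1-digit (circles) and 3-digit (triangles) libraries of day 1 and day 3, filled where the adjusted p was under 0.05. The formats lie apart at day 1 for Abcc3 (-0.97 and 1.42) and Abcb1b (-0.58 and 0.75), and at day 3 for Abcg2 (1.09 and -0.08) and Abca1 (-1.24 and -0.03).

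Over the rest of the ABC family, 27 of the 40 other symbols were tested, and 2 rose and 10 fell at day 1, while 1 rose and 7 fell at day 3, beside 23.3% of all tested genes called higher and 18.7% lower at day 1 and 19.5% and 13.8% at day 3. The median log2 fold change of these 27 was -0.49 and -0.32, beside 0.01 and 0.05 over all tested genes. Abca13, a large lipid transporter, fell from 313 ± 26.6 CPM (SD, n = 4) to 52.6 ± 24.5 CPM (n = 5) at day 1 (log2 fold change -2.58, adjusted p = 0.00692). Abca9, another lipid transporter, was lower by -2.50 on the log2 scale at day 1 (adjusted p = 0.000298). Abce1, which recycles ribosomes and transports nothing, rose by 0.63 at day 1 (adjusted p = 0.00239), and Abca6 rose by 1.97 at day 3 (adjusted p = 0.0185) from 0.282 to 1.14 CPM.

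Tubular carriers that share substrates with these pumps were called lower more often than higher. Of 12 tested, which are uptake carriers and Slc47a1, an exporter of organic cations at the brush border, 6 fell at day 1, beside 18.7% of all tested genes, and 9 fell at day 3, beside 13.8%, with none called higher. Their median log2 fold changes were -0.69 and -1.37, beside 0.01 and 0.05 over all tested genes. Slc22a7, an organic anion carrier, went from 234 ± 58.4 CPM at day 0 to 31.4 ± 9.60 CPM at day 1 and 1.41 ± 0.738 CPM at day 3 (log2 fold change -7.37 at day 3, adjusted p = 9.07e-08). Slc15a2, a peptide carrier, fell by 2.91 at day 1 (adjusted p = 8.97e-05), and Slco1a1, an organic anion carrier, fell by 2.53 at day 3 (adjusted p = 0.00475). Of 7 scaffold proteins that hold transporters at the membrane, 2 rose and 3 fell at day 1, and 2 rose and 1 fell at day 3, beside the shares of all tested genes given above for each direction. Pdzk1, the brush border scaffold, fell from 1881 ± 152 to 649 ± 321 CPM at day 1 (adjusted p = 0.00943), while Msn and Ezr, which link membrane proteins to actin, rose by 1.85 (adjusted p = 8.24e-05) and 1.04 (adjusted p = 0.000862). The proximal tubule sum was below all day 0 libraries at day 3 (9783 to 24480 against 47750 to 52470 CPM) but overlapped them at day 1 (19980 to 51100 CPM). Its part in these differences was not tested.

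For the next lists too, the background was 23.3% of all tested genes called higher and 18.7% lower at day 1, and 19.5% and 13.8% at day 3. Of 14 tested receptors that sense drugs and sterols, none rose and 2 fell at day 1, while 2 rose and 2 fell at day 3. Nr1i2, the pregnane X receptor for foreign compounds, rose by 1.27 at day 3 (adjusted p = 0.00173), and Nr1h3, which encodes LXR alpha, was lower by -1.25 at day 3 (adjusted p = 0.00905) and did not pass at day 1 (-0.77, adjusted p = 0.0656). Of 8 tested LXR targets other than Abca1 and Abcg1, 1 rose and 3 fell at each of days 1 and 3. Mylip, which targets the LDL receptor for degradation, fell by 1.27 at day 1 (adjusted p = 0.00155), whereas Arl4c, another target on the list, rose by 2.94 (adjusted p = 1.79e-05). Of 10 tested cholesterol carriers and acceptors, 4 rose and none fell at day 1, while 2 rose and 1 fell at day 3. Scarb1, the receptor for high-density lipoprotein, rose from 15.3 ± 1.58 to 36.4 ± 6.92 CPM at day 1 (log2 fold change 1.25, adjusted p = 0.00199). Of 11 NRF2 targets, 6 rose at each of days 1 and 3 and 1 fell at day 1, and Hmox1, which degrades heme, rose from 39.0 ± 8.72 to 703 ± 238 CPM at day 1 (log2 fold change 4.17, adjusted p = 2.48e-05).

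Among all tested genes, those whose log2 CPM over the 14 libraries was most like that of a member are given as a description for all members but Abcc3 and Abcc4, and the libraries share their day and format. Rab3d, a small GTPase of secretory vesicles, was the most like Abcc2 (Pearson r = 0.94). It was Gtdc1 for Abcg2 (r = 0.92), Epn3 for Abcc1 (r = 0.96), Zbtb38 for Abcc5 (r = 0.91) and Mapk15 for Abca1 (r = 0.95). For Abcb1a it was Cnn3 (r = 0.96), a calponin that binds actin, and for Abcg1 it was Slc39a8 (r = 0.96), a zinc and manganese carrier. Abcb1b had the weakest likeness of the 10 to any gene, with r = 0.83 for Guca1a.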

How the data were processed

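Per the labels and the submitters' processing notes, the authors extracted total RNA from kidneys with TRIzol, made libraries with an Illumina TruSeq kit, and processed the reads with Trimmomatic and STAR on mm10. Tool versions and gene models are not given in the sources used here. The deposited values are unnormalized STAR counts, 1 per gene symbol, from reads that map to a single place, given without strand and by strand. Reads that fit both Abcb1a and Abcb1b equally well are not counted for either. The opposite-strand column held 98.5% to 98.8% of strand-assigned reads and was used. STAR's 4 summary entries (reads assigned to no single gene), 29.0% to 38.3% of reads, were left out.

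Differences were tested with edgeR 4.0.16 in R 4.3.3 (filterByExpr by day, TMM, quasi-likelihood F test, a mean for each day, all 14 libraries, limma 3.58.1) and Benjamini-Hochberg adjustment over 14300 genes, with calls at 0.05. SEs were derived from the F value, and intervals from the t distribution. A second fit had 1 term per day and number format. CPM include the TMM factors, with a prior count of 2 added before logs were taken. CPM per kb divide by the union of coding-transcript exons of GENCODE M21 (GRCm38). Ratios of paired members were tested by exact permutation, two-sided. Promoter sequences came from RefSeq (GRCm38.p6). The 7 motifs searched on both strands were AP-1 (TGANTCA), the antioxidant response element (TGACNNNGC), the xenobiotic response element core (GCGTG), the DR4 element, the GC box (GGGCGG), the E-box (CACGTG) and the CCAAT box (CCAAT). On simulated counts for day 1 against day 0 (13723 genes), all 200 genes given a log2 difference of 2 were called, along with 9 unchanged genes. The simulation gave all genes the same dispersion and no format effect, and changed only genes above a minimum mean count. It therefore does not measure the power for smaller differences or for members with a wider spread. Alternatives were the unstranded column, other scaling and filters, DESeq2 1.42.0, the format as a term or within formats, a replicate block, and each library left out.

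The members, the lists and the motifs were chosen with earlier results of these data known. All 10 members were named. From each other list up to 4 called genes with the largest log2 fold change at day 1 or 3 could be named, 2 per direction where both occurred, with the gene most like each member over 14 libraries, not reported here for Abcc3 and Abcc4. In all 26 pairs of replicates the counts differed more than sampling allows (chi-square over its degrees of freedom, 5.96 to 242), so each library counted once. Intervals and counts cover library spread as fitted, and depth ranged from 12485579 to 20476979 reads on genes.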

Additional observations from a re-analysis of the deposited data

Results flagged for a closer look

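Of 39 groups of values of the 10 transporters and their 3 ratios (4 or 5 libraries each), 7 held a library that stood apart from the rest by Dixon's gap test, where chance gives about 1 in 20 groups, or 1.95. On the log2 CPM scale, Abcc3 was at 4.36 in day 0 replicate 4 against 1.24 to 1.55 in the other day 0 libraries, and Abcc2 was at 7.05 in the same library against 6.61 to 6.63. The log2 ratio of Abcc3 to Abcc2 in that library was -2.70, against -5.37 to -5.05. Abcb1a was at 4.84 in day 3 replicate 5, against 2.84 to 3.29, and the log2 ratio of Abcb1b to Abcb1a there was -1.18, against 0.78 to 1.31. Abcc3 was at 3.17 in day 3 replicate 2, against 4.47 to 4.89. Abcg1 was at 2.60 in day 1 replicate 5, against 1.90 to 2.05.

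The difference between 3-digit and 1-digit libraries was not the same on both injured days for Abcg2 and Abca1, by the test of the difference itself, a result that 17.6% of all tested genes had. Day 1 minus day 3, the format difference was 1.19 for Abcg2 (edgeR, adjusted p = 0.018) and -1.35 for Abca1 (edgeR, adjusted p = 0.0307), and leaving out single libraries raised these p-values to 0.105 and 0.116 at most.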

How the results depend on the processing

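The day 1 calls of Abca1 and Abcg1 and the day 3 calls of Abcc2, Abcc4 and Abcg1 against day 0 kept their direction and stayed below 0.05 under all 11 other settings and with each of the 14 libraries left out. The Abcb1a call at day 1 did so too (log2 fold change 1.10 to 2.10 over settings and 1.34 to 2.00 with a library left out). Having 2 or 3 libraries per format limits the precision of values within formats. Of 420 day differences with a library left out, 388 kept direction and side. None of the reversed values was called in either setting. The causes below were not tested.

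With the 2 days compared alone, 831 genes differed between days 3 and 1. Abcc3 at day 3 against day 0 passed with DESeq2 (adjusted p = 0.0481), and Abcc5 at day 3 against day 1 with DESeq2 (0.0448) and without TMM (0.0493). Reversed with other scaling or filters were Abcc1 at day 3 against day 1 (0.14 without TMM, 0.0024 with at least 10 counts in every library), the day 1 format difference of Abcg2 (-0.014 with RLE factors and with DESeq2) and that of Abca1 (0.081 without TMM).

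With format as a term, 5 members changed at day 3 against day 0 (Abcb1a and Abcg2 were added). The 11 other settings, this one among them, called 3926 to 8119 genes in that comparison. With that term Abcb1b was at -0.36 (day 1) and -0.30 (day 3) and Abcc3 at -0.28 (day 1). In 1-digit libraries alone, 8119 genes and 6 members changed at day 3 against day 0, and 5194 genes and 5 members at day 3 against day 1. There Abcb1b was at -0.55 and Abcc3 at -0.94 at day 1 against day 0, Abcc1 at 0.41 and Abcg1 at -0.39 at day 3 against day 1, and the Abcc3 to Abcc2 log2 ratio at -0.13 at day 1 minus day 0. In the fit by day and format, 1 member was called in 3-digit libraries at day 3 against day 1, beside 13.9% of all tested genes. In 3-digit libraries alone, 1 member changed in that comparison too. There Abcc2 was at 0.22, Abcc4 at 0.26 and Abcc5 at 0.052 at day 1 against day 0, Abcg2 at -0.079 at day 3 against day 0 and -0.41 against day 1, and Abcb1b at -0.43 at day 3 against day 1. The log2 ratios were 0.30 for Abcb1b to Abcb1a (day 3 minus day 0) and -0.77 for Abcc3 to Abcc2 (day 3 minus day 1).

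Whether same-numbered libraries share more than a number is not stated. The correlation of their deviations from the day means was over 0.1 in 4 of 13 pairs (-0.18 to 0.26). These values were not set against differently numbered pairs, so they do not decide it. On both injured days replicates 1 and 2 were 3-digit and replicates 4 and 5 were 1-digit libraries, so the block and the format largely coincide there. With the replicate block no call of a member between days was lost or gained, and at day 1 against day 0 Abcc2 was at 0.050 and Abcc4 at 0.022. With the block 2507 genes had a format difference at day 1, 0 at day 3 by edgeR (2137 at an unadjusted p under 0.05, and 3524 by DESeq2 without the block), and 1608 differed between the days. With the block the format differences were -0.28 for Abcg2 and 0.24 for Abcg1 at day 1, and -0.75 for Abcb1b, 0.26 for Abcc4, 0.19 for Abcc1, 2.19 for Abcc3 and 0.19 for Abcc5 at day 3. The day 1 minus day 3 value of Abcb1a was -0.051 with the block, and the Abcb1b to Abcb1a log2 ratio at day 3 minus day 0 was 0.25. The format calls of Abcb1b (0.53) and Abcc5 (0.81) at day 1 and of Abcg2 (-1.49) and Abca1 (0.88) at day 3, and the difference between days of Abca1 (-1.07), did not pass with the block (adjusted p 0.0583 to 0.586), while Abcc4 at day 1 did (1.01, adjusted p = 0.0259).

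With a library left out, the genes changed were 4759 to 6533 (day 1), 3338 to 5659 (day 3) and 1269 to 3350 (day 3 against day 1), and the members changed were 3 to 4, 3 to 4 and 2 to 4. Format differences numbered 1997 to 5602 at day 1, 91 (without day 3 replicate 5) to 4771 (without day 3 replicate 1) at day 3, and 1260 to 3148 between the days. The ranges of log2 values that crossed 0 were, at day 1 against day 0, Abcb1b -0.30 to 0.41, Abcc2 -0.13 to 0.093, Abcc4 -0.15 to 0.27 and Abcc3 -0.22 to 1.90, and at day 3 against day 0 Abcb1b -0.11 to 0.50. At day 3 against day 1 they were Abcb1b -0.064 to 0.49, Abcg2 -0.13 to 0.34, Abcc1 -0.24 to 0.14 and Abcg1 -0.059 to 0.26. The format ranges were Abcg2 -0.25 to 0.25 and Abca1 -0.32 to 0.11 at day 1, Abcc2 -0.76 to 0.029, Abcc3 -0.37 to 0.29 and Abcc5 -0.23 to 0.044 at day 3, and Abcb1a -0.94 to 0.81 between the days. The log2 ratio ranges were -0.025 to 0.36 for Abca1 to Abcg1 (day 1 minus day 0), -0.085 to 0.69 for Abcc3 to Abcc2 (day 3 minus day 1) and -0.37 to 0.25 for Abcb1b to Abcb1a (day 3 minus day 0).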
